A study of Mus musculus with 9 samples.

Results

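The genes described here encode the inhibitors of cyclin-dependent kinases (CDKs) and the D-type cyclins, which act on opposite sides of the decision of a cell to leave G1 phase. They were taken by gene name from a table of 38940 genes, and all 10 were present: Cdkn1a, Cdkn1b and Cdkn1c of the Cip/Kip family, Cdkn2a, Cdkn2b, Cdkn2c and Cdkn2d of the INK4 family, and the cyclin genes Ccnd1, Ccnd2 and Ccnd3. RNA-seq was done on 9 libraries of mouse embryonic stem cells, 3 each of Yap/Taz double KO, Taz KO and control. The study asked about the role of YAP and TAZ, co-activators of TEAD transcription factors at the end of the Hippo pathway. By the sample descriptions, double KO cells were deleted for both genes, Taz KO cells (Yap fl/fl Taz-/-) lacked Taz and kept floxed Yap, and control cells were Yap fl/fl Taz fl/fl. The genotype field of the double KO libraries gives the Taz KO genotype, so the grouping follows titles and descriptions. All cells grew on fibronectin in N2B27 medium with Lif (4 ng/ml), the MEK inhibitor PD0325901 (0.4 µM) and the GSK3 inhibitor CHIR99021 (3 µM). Cre-ERT2, driven by the CAG promoter, came from a piggyBac transposon and was activated with 4-OHT (500 nM). The labels give this protocol for all groups alike and do not say which cells had received 4-OHT, or how many clones each group held.

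As background, D-type cyclins bind CDK4 and CDK6 and start the phosphorylation of the retinoblastoma protein RB, which frees E2F factors to switch on the genes of DNA synthesis. INK4 proteins bind CDK4 and CDK6 and keep cyclin D off them, while Cip/Kip proteins bind complexes of cyclins with CDKs, above all those with CDK2. Mouse embryonic stem cells are known for a short G1 phase, high activity of CDK2 with cyclins E and A, and RB that is largely phosphorylated. Several of these proteins, p27 among them, are controlled mainly by turnover, which RNA does not show.

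Library sizes, recovered from the steps of the deposited values, were 19.1 to 24.0 M reads. Values are given as FPKM (fragments per kilobase, scaled for depth by the authors), which is a level per transcript length, and means are ± SD over 3 libraries. Yap1 was at 4.14, 3.98 and 4.62 FPKM in double KO, 18.6, 17.9 and 18.5 FPKM in Taz KO, and 18.1, 18.1 and 19.1 FPKM in control. Double KO thus held 23.0% of the control level, while Wwtr1, which encodes TAZ, was at 13.9 ± 0.772 FPKM in double KO, 10.8 ± 1.58 FPKM in Taz KO and 12.1 ± 0.847 FPKM in control and was called in neither comparison with control. The deleted exons of Wwtr1 are not given, so its level checks nothing about the deletion. Tested genes of chromosomes 6, 8 and 14 lay above control as a whole in both knockout groups, and those of chromosome Y below. The libraries numbered 2 stood apart in every group: pairs with such a library had a chi-square of 16.9 to 46.6 per gene in recovered reads, against 5.73 to 10.4 for the other pairs. The 8 stem cell markers examined summed to 2210 to 2550 FPKM in double KO, 3740 to 4120 FPKM in Taz KO and 4540 to 4840 FPKM in control, sums dominated by Dppa5a. Without Dppa5a the other 7 summed to 1180 to 1290 FPKM in double KO, 1330 to 1420 FPKM in Taz KO and 1390 to 1400 FPKM in control. The 8 trophectoderm markers summed to 103 to 134 FPKM in double KO, 67.2 to 80.7 FPKM in Taz KO and 61.7 to 67.6 FPKM in control. Krt8 and Tfap2c led these sums, while Cdx2, Elf5, Gata3 and Hand1 stayed under 1 FPKM in every library. Of those low genes, Gata3 and Hand1 had lower means in double KO than in control, and Cdx2 and Elf5 higher ones. Sums stayed under 12 FPKM in every library for 8 fibroblast markers, of which Postn and Dcn were listed at 0, and for 7 primitive endoderm markers. By limma, 4 stem cell markers (Sox2, Nanog, Fgf4 and Dppa5a) were called lower and 1 (Zfp42) higher in double KO against control. The part of these shifts in the results was not tested, and in bulk RNA fewer cells of a type and less RNA per cell cannot be told apart.

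In control cells Cdkn1a had the highest level per length, at 142 ± 17.1 FPKM. It was followed by Ccnd1 (35.4 ± 8.01 FPKM), Cdkn2a (23.2 ± 0.317 FPKM), Ccnd3 (14.9 ± 1.03 FPKM), Cdkn1b (10.5 ± 0.653 FPKM) and Cdkn2d (10.3 ± 0.278 FPKM). Cdkn1b and Cdkn2d overlapped in their control values, while the other neighbours in this order did not. Cdkn1c (3.24 ± 0.679 FPKM), Cdkn2b (1.79 ± 0.238 FPKM), Cdkn2c (0.519 ± 0.0939 FPKM) and Ccnd2 (0.115 ± 0.0113 FPKM) came last. In double KO the order differed in its middle: Cdkn2a (24.0 ± 0.640 FPKM) was followed by Cdkn1b (18.6 ± 2.06 FPKM), Ccnd1 (17.9 ± 9.27 FPKM), Ccnd3 (11 ± 0.503 FPKM) and Cdkn1c (10.1 ± 1.62 FPKM). There Ccnd1 overlapped all of these genes, spanning 7.33 to 24.5 FPKM, and Cdkn1c overlapped Ccnd3 above it and Cdkn2d (9.67 ± 0.505 FPKM) after it. In Taz KO Ccnd1 (36.5 ± 13.7 FPKM) overlapped Cdkn2a (27.1 ± 1.14 FPKM), and Cdkn1b (15.5 ± 1.56 FPKM) overlapped Ccnd3 (15.4 ± 1.33 FPKM). Cdkn2c and Ccnd2 had means under 1 FPKM over the 9 libraries, the limit for testing, so 8 of the 10 genes entered the test.

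**Figure D1:**
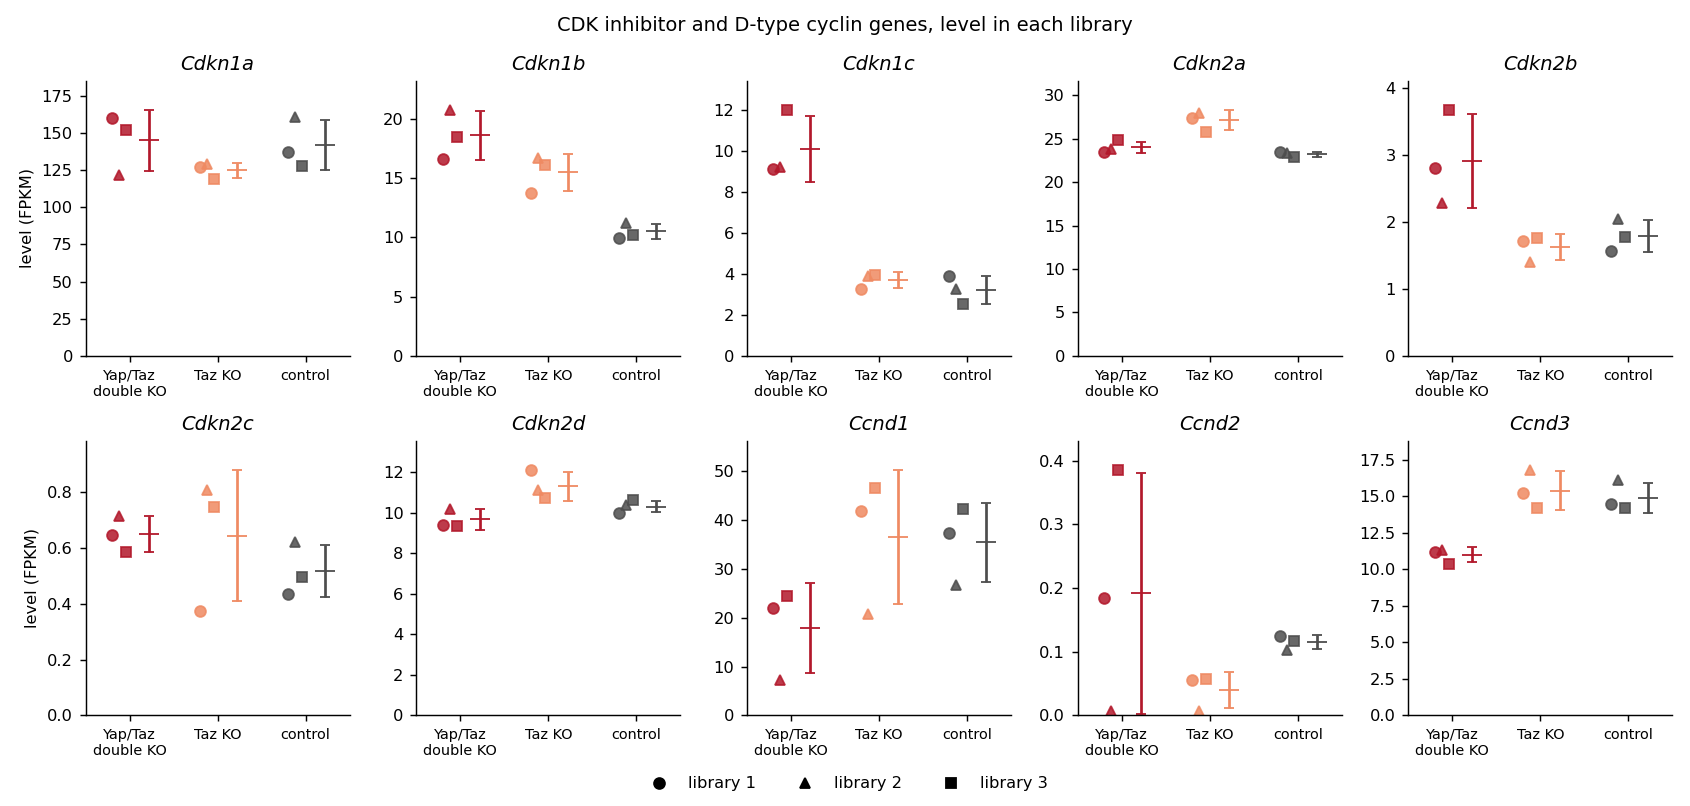
Level of each CDK inhibitor and D-type cyclin gene in FPKM (vertical axis, from 0) in the 3 libraries each of Yap/Taz double KO, Taz KO and control. Symbols give the library number and the bars beside them mean ± SD; all double KO libraries lie above all others for Cdkn1c and below all others for Ccnd3, and the triangles of Ccnd1 (library 2) are the lowest of each group.

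The promoters of the changed genes are shown because TEAD factors, the DNA-binding partners of YAP and TAZ, recognise a short motif. Of the 10 genes, 7 had RefSeq promoter windows, 11 in all, on GRCm38.p6; Cdkn1c, Ccnd1 and Ccnd2 were the others. A search on both strands of windows from 250 bases before a start to 50 after it looked for the TEAD motif GGAATG and the AP-1 motif TGANTCA, neither of which contains the other. The TEAD motif was found in 1 of these 11 windows, that of the downstream start of Ccnd3, and in 14.7% of all 32851 windows. The AP-1 motif was in 0 of the 11 and in 7.81% of all. The 250 bases before the start are printed 5′ to 3′ on the strand of the gene for Ccnd3 (chr17:47593217-47593466, plus strand), Cdkn1b (chr6:134920151-134920400, plus strand) and Cdkn2b (chr4:89311033-89311282, minus strand), with capitals for the TEAD motif, which reads CATTCC on this strand and begins at position -17 from the start.
Ccnd3: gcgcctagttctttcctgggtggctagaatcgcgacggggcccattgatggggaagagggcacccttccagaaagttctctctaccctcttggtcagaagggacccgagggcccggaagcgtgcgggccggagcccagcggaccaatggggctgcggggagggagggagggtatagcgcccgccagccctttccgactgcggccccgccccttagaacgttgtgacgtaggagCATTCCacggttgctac
Cdkn1b: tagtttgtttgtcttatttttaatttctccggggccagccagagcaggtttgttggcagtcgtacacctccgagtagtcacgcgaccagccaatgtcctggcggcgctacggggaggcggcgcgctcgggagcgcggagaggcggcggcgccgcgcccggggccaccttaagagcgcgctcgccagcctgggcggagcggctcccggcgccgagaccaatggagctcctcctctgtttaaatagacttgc
Cdkn2b: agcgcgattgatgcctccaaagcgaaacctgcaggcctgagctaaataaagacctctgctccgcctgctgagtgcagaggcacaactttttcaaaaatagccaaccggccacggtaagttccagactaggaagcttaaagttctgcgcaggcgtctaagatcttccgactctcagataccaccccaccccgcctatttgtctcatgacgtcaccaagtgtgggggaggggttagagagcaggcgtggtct
These matches are letters in a window and were not examined for binding.

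By the limma fit of all 9 libraries, double KO cells had more RNA of 3 CDK inhibitors and less RNA of 1 D-type cyclin than control cells. By limma on log2(FPKM + 0.5), 4 of the 8 tested genes passed an adjusted p of 0.05 in double KO against control, where 25.3% of all 11674 tested genes did. Cdkn1c, Cdkn1b and Cdkn2b rose (12.4% of all genes were called higher) and Ccnd3 fell (12.9% were called lower). The call of Cdkn2b was lost in 7 of the 9 limma fits without 1 library. That of Ccnd3 was lost with equal FPKM sums (limma adjusted p = 0.051), and Cdkn1b lies on chromosome 6, raised as a whole. No overlap between double KO and control was seen for 6 of the 8 genes, and for 45.6% of all genes. With the library number as a block 5 of the 8 passed, where 52.4% of all genes did. Without the 3 libraries numbered 2, an alternative chosen after the values were seen, 6 of the 8 passed, and 41.9% of all genes.

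In Taz KO against control, limma called 0 of the 8 genes, against 1.28% of all genes, and 2 had an unadjusted p under 0.05 (12.8% of all genes), Cdkn1b and Cdkn2a. Both passed with the block, where 11.8% of all genes did. Limma-voom on the recovered reads called 1, Cdkn1b, against 1.51% of all genes. Without the libraries numbered 2 it was again Cdkn1b alone (3.62% of all genes), and also without double KO 2. Taz KO and control did not overlap for 3 of the 8 genes, against 18.7% of all genes. In double KO against Taz KO, limma called 3 of the 8 genes, against 13.9% of all genes: Cdkn1c and Cdkn2b were higher (6.42% of all genes) and Ccnd3 was lower (7.45%). Here 5 of the 8 did not overlap, against 30.6% of all genes. With the block 7 of the 8 passed in that comparison, where 42.4% of all genes did, and 6 passed without the libraries numbered 2, where 36.6% did. The comparisons share libraries, so their results are not independent of each other. The median log2 fold change of the 8 genes was 0.04 in double KO against control, 0.08 in Taz KO against control and 0.02 in double KO against Taz KO, and that of all tested genes was -0.02, 0.01 and -0.04 in the same order.

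**Figure D2:**
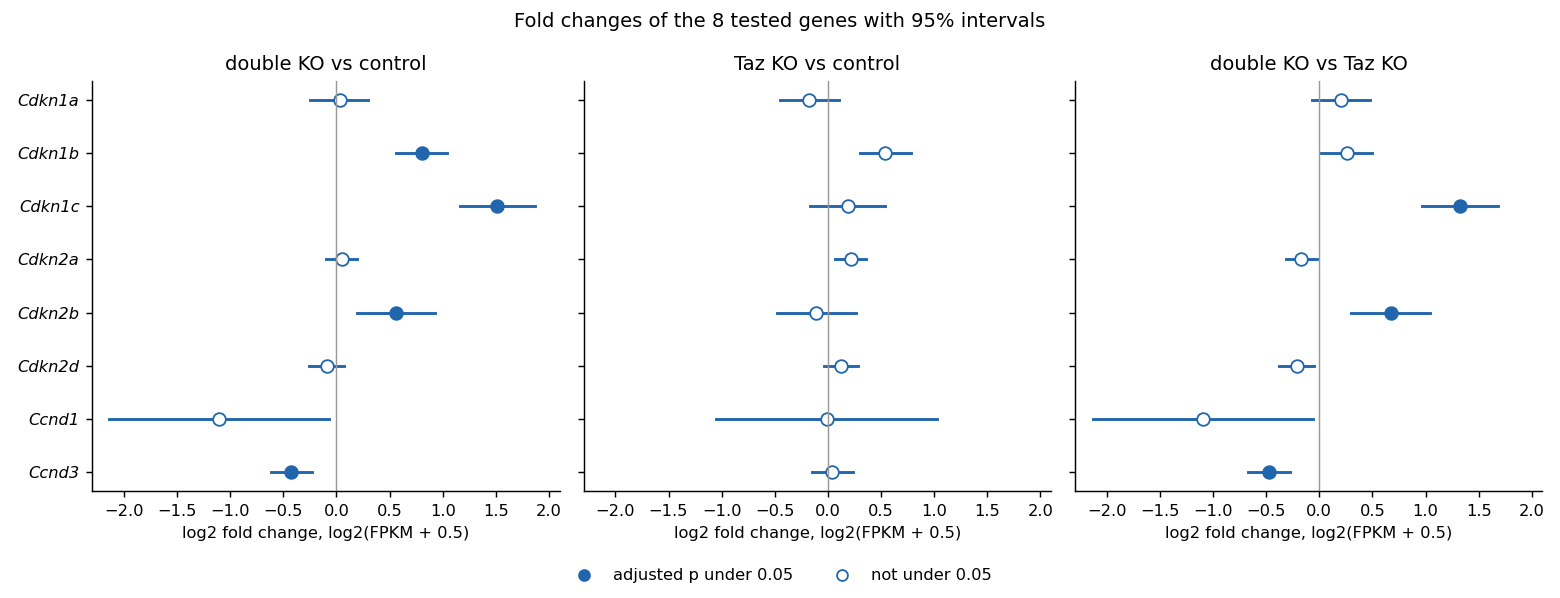
Log2 fold changes on the log2(FPKM + 0.5) scale (horizontal axis) with 95% intervals from limma for the 8 tested genes in the 3 comparisons. Filled points have an adjusted p under 0.05: Cdkn1b, Cdkn1c, Cdkn2b and Ccnd3 in double KO against control, none in Taz KO against control, and Cdkn1c, Cdkn2b and Ccnd3 in double KO against Taz KO.

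Among Cip/Kip genes, Cdkn1c showed the largest change of the 8 tested genes in double KO against control. Cdkn1c (ENSMUSG00000037664; chr7:143458339-143461050, minus strand, GRCm38) encodes p57, a broad inhibitor of G1 kinases, and is an imprinted gene read from the maternal allele. It was at 9.13, 9.23 and 12 FPKM in double KO, 3.27, 3.92 and 3.97 FPKM in Taz KO, and 3.89, 3.29 and 2.53 FPKM in control. All 3 double KO libraries lay above all others, while Taz KO and control overlapped. The log2 fold change was 1.51 for double KO against control (SE 0.16, 95% interval 1.16 to 1.87, limma adjusted p = 0.000484), which is 2.85-fold on that scale. Against Taz KO it was 1.32 (adjusted p = 0.00217), and for Taz KO against control 0.19 (95% interval -0.17 to 0.54, adjusted p = 0.779). Both calls of double KO held in each of the 9 limma fits that left out 1 library, with adjusted p-values of up to 0.00337 against control and 0.0142 against Taz KO. The reads behind these values numbered 95 to 454 per library.

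Cdkn1c stood apart on its own chromosome: of 930 tested genes of chromosome 7, 4 had a higher log2 fold change in double KO against control, and the chromosome's median was -0.07. Its neighbours, looked at after the values of Cdkn1c were seen, did not move one way. Tested genes whose lower coordinate lay within 1000000 bases of its own numbered 14. Of these, 2 were called higher (12.4% of all genes) and 4 lower (12.9%) in double KO against control. With the block these counts were 3 and 6, where 52.4% of all genes passed. Those called higher without the block were the imprinted genes Igf2, a growth factor (1.08, limma adjusted p = 0.0234), and Phlda2, a regulator of placental growth (0.68, adjusted p = 0.0347). The lower ones were Cars (-0.92, adjusted p = 0.000535), Ascl2 (-0.78, adjusted p = 0.0151), Dhcr7 (-0.42, adjusted p = 0.0183) and Mrpl23 (-0.29, adjusted p = 0.0187). Ascl2, also imprinted and known as a trophoblast factor, was lower in Taz KO as well (-0.95, adjusted p = 0.0463).

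Cdkn1b was raised in double KO and sat between the groups in Taz KO. Cdkn1b (ENSMUSG00000003031; chr6:134920401-134925513, plus strand) encodes p27, which holds CDK2 complexes inactive and is removed through SKP2. It was at 16.6, 20.7 and 18.5 FPKM in double KO, 13.7, 16.7 and 16.1 FPKM in Taz KO, and 9.95, 11.2 and 10.2 FPKM in control. Every knockout library lay above every control library, and Taz KO overlapped with double KO only through its highest and the lowest double KO values. The log2 fold change was 0.80 for double KO against control (SE 0.11, 95% interval 0.56 to 1.04, limma adjusted p = 0.0014), or 1.74-fold. For Taz KO against control it was 0.54 (SE 0.11, 95% interval 0.30 to 0.78), with a limma adjusted p of 0.0507 and 0.00198 with the replicate block. For double KO against Taz KO it was 0.26 (95% interval 0.02 to 0.50, adjusted p = 0.139, and 0.00734 with the block).

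The chromosome of Cdkn1b bears on these values. The median log2 fold change of the 522 tested genes of chromosome 6 was 0.19 in double KO and 0.21 in Taz KO, each against control, and -0.01 between double KO and Taz KO. Of these genes 27.8% were called higher in double KO against control, and 7.47% had a larger log2 fold change than Cdkn1b. Cdkn1b lay 0.60 above the chromosome's median in double KO, 0.33 above it in Taz KO, and 0.27 above it between them. Centring is another correction: it subtracts the median log2 level of a chromosome's genes in each library, which need not shift as the median of their fold changes does. With centring, the log2 fold change of Cdkn1b was 0.48 in double KO against control (limma adjusted p = 0.0257) and 0.29 in Taz KO against control. In Taz KO the adjusted p was then 0.547, and 0.0432 with centring and the block together. The shift of the chromosome and any other difference of the knockout cells cannot be told apart in this design.

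Genes around Cdkn1b did not share one course. Of 12 tested genes within 1000000 bases, 10 lay above 0 in double KO against control, 2 were called higher and 1 lower, and 6 higher and 1 lower with the block. Of all genes, 12.4% were called higher and 12.9% lower in that comparison, and 52.4% passed with the block. Gpr19, an orphan receptor gene, was the nearest on the left by lower coordinate (-51.3 kb). It was at 11, 11.4 and 12.5 FPKM in double KO, 6.95, 8.34 and 8.01 FPKM in Taz KO, and 4.82, 5.25 and 5 FPKM in control. Its groups did not overlap, with log2 fold changes of 1.14 in double KO (limma adjusted p = 0.000126) and 0.58 in Taz KO (adjusted p = 0.0198), each against control. Ddx47, an RNA helicase gene and the nearest on the right (91.2 kb), had 0.10 (adjusted p = 0.592) and 0.18 (adjusted p = 0.674) in the same comparisons. The other called neighbours in double KO against control, named after their values were seen, were Dusp16, a phosphatase of stress kinases (0.88, adjusted p = 0.000902), and Gprc5a, a retinoic-acid-induced receptor (-1.62, adjusted p = 0.00104).

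**Figure D3:**
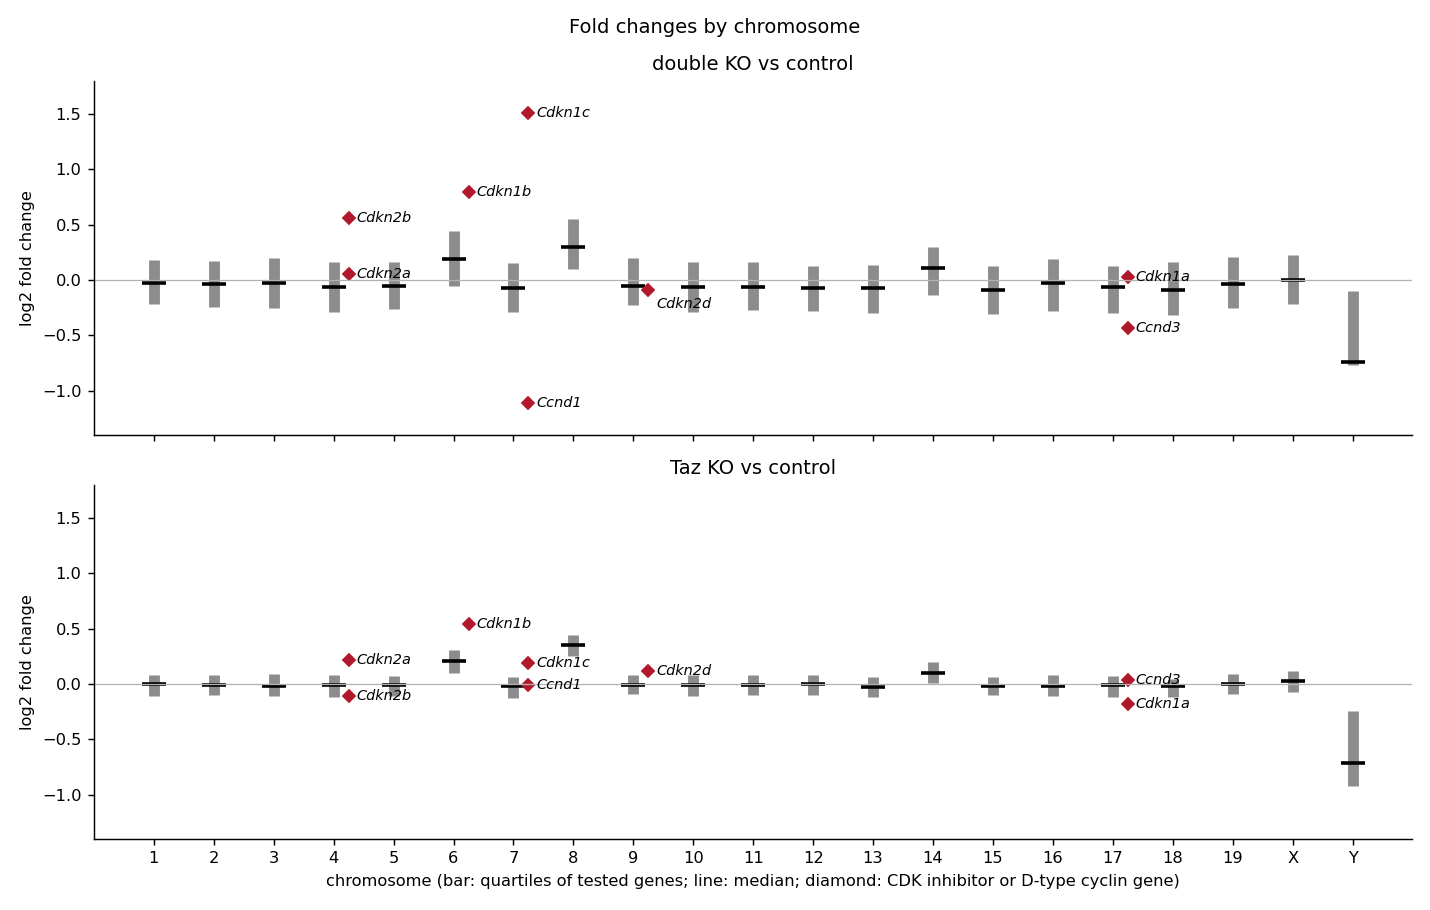
Log2 fold changes by chromosome (horizontal axis) in double KO against control (top) and Taz KO against control (bottom); bars span the quartiles of the tested genes, lines mark the median, and diamonds mark the CDK inhibitor and D-type cyclin genes. Chromosome 6 lies at a median of 0.19 in the top panel and 0.21 in the bottom panel, and Cdkn1b lies above its bar in both.

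Cdkn1a was the most abundant of the 10 in every library and was not called in any of the 3 comparisons by the limma fit of all 9 libraries. Cdkn1a (ENSMUSG00000023067; chr17:29090976-29100727, plus strand) encodes p21, the CDK inhibitor that p53 switches on. It was at 160, 122 and 152 FPKM in double KO, 127, 129 and 119 FPKM in Taz KO, and 137, 161 and 128 FPKM in control. The groups overlapped, and library 2 was the lowest of double KO and the highest of control. The log2 fold change was 0.03 in double KO against control (95% interval -0.25 to 0.30, limma adjusted p = 0.888), -0.18 in Taz KO against control (-0.45 to 0.10, adjusted p = 0.684) and 0.20 in double KO against Taz KO (-0.07 to 0.48, adjusted p = 0.3). Within a library number, double KO was at 117%, 75.9% and 119% of control for numbers 1, 2 and 3. Without the libraries numbered 2, the log2 fold change was 0.24 in double KO against control (limma adjusted p = 0.0201) and 0.34 in double KO against Taz KO (adjusted p = 0.00722).

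Among INK4 genes, which bind CDK4 and CDK6, Cdkn2b rose in double KO, a call that most fits without 1 library did not keep. Cdkn2b (ENSMUSG00000073802; chr4:89306299-89311039, minus strand) encodes p15, known as a target of TGF-beta signalling. It was at 2.80, 2.28 and 3.66 FPKM in double KO, 1.71, 1.40 and 1.76 FPKM in Taz KO, and 1.57, 2.04 and 1.77 FPKM in control. All double KO libraries lay above all others, with the lowest double KO value, that of library 2, close to the highest control value, also of library 2. The log2 fold change was 0.56 in double KO against control (SE 0.16, 95% interval 0.19 to 0.93, limma adjusted p = 0.0368) and 0.67 against Taz KO (SE 0.16, adjusted p = 0.0302). In Taz KO against control it was -0.11 (-0.48 to 0.26, adjusted p = 0.922).

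The Cdkn2b values rest on 45 to 100 reads per library. The call against control was lost in 7 of the 9 limma fits without 1 library, namely without double KO 1 or 3, Taz KO 1 or 3, or control 1, 2 or 3, with an adjusted p of up to 0.129 (without control 1). It was also lost with no filter on low values (0.0839), quantile normalization (0.088), chromosome centring (0.0543) and a fit of the groups compared alone (0.0559). Against Taz KO it was lost in 4 of the 9, without double KO 1 or 3 or Taz KO 1 or 3, with an adjusted p of up to 0.0925, and with no filter (0.0701), quantile normalization (0.0711) and the groups compared alone (0.076).

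Cdkn2a lies next to Cdkn2b, 31.8 kb away by lower coordinate, and did not follow it. Cdkn2a (ENSMUSG00000044303; chr4:89274471-89294653, minus strand) encodes p16 and, from another first exon, ARF, which stabilises p53 by binding MDM2; the gene's value sums both transcripts. It was at 23.5, 23.8 and 24.8 FPKM in double KO, 27.4, 28.0 and 25.8 FPKM in Taz KO, and 23.5, 23.3 and 22.9 FPKM in control. Taz KO lay above every other library, and double KO lay above control by a margin that vanishes on rounding, since their nearest values were both 23.5 FPKM. The log2 fold change was 0.22 in Taz KO against control (SE 0.06, 95% interval 0.07 to 0.36), with a limma adjusted p of 0.159 and 0.032 with the block. In double KO against Taz KO it was -0.17 (-0.31 to -0.02), with an adjusted p of 0.112, 0.0295 with the block and 0.0454 with chromosome centring. Double KO against control gave 0.05 (-0.10 to 0.19, adjusted p = 0.622).

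Cdkn2d and Cdkn2c, which encode the INK4 proteins p19 and p18 that are common in embryonic and developing tissue, showed no call by the limma fit. Cdkn2d (ENSMUSG00000096472; chr9:21288410-21291407, minus strand) was at 9.41, 10.2 and 9.35 FPKM in double KO, 12.1, 11.1 and 10.7 FPKM in Taz KO, and 10, 10.4 and 10.6 FPKM in control. Taz KO lay above all other libraries, and double KO and control overlapped. Its log2 fold change was -0.09 in double KO against control (limma adjusted p = 0.375), 0.12 in Taz KO against control (adjusted p = 0.6) and -0.21 in double KO against Taz KO. The adjusted p of that last comparison was 0.0853, 0.0304 with the block and 0.0374 without the libraries numbered 2. Cdkn2c (ENSMUSG00000028551; chr4:109660876-109667189, minus strand), under the limit for testing, was at 0.648, 0.715 and 0.588 FPKM in double KO, 0.375, 0.809 and 0.749 FPKM in Taz KO, and 0.437, 0.621 and 0.498 FPKM in control. Its groups overlapped, with 22 to 50 reads per library.

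Both D-type cyclin genes with means above 1 FPKM had their lowest mean in double KO, and Ccnd3 alone was called by the main limma fit of all 9 libraries, without the block. Ccnd3 (ENSMUSG00000034165; chr17:47505051-47599691, plus strand) was at 11.2, 11.3 and 10.4 FPKM in double KO, 15.2, 16.8 and 14.2 FPKM in Taz KO, and 14.5, 16.1 and 14.2 FPKM in control. The highest double KO value, 11.3 FPKM, was under the lowest of the remaining libraries, 14.2 FPKM, and Taz KO and control overlapped. Ccnd3 fell by 0.43 on the log2 scale in double KO against control (SE 0.09, 95% interval -0.62 to -0.23, limma adjusted p = 0.00817), to 73.4% of the control mean. Against Taz KO it fell by 0.47 (SE 0.09, adjusted p = 0.0107), and Taz KO against control gave 0.04 (-0.15 to 0.24, adjusted p = 0.946). Both calls held in each of the 9 limma fits without 1 library. With libraries scaled to equal FPKM sums they were lost, at adjusted p-values of 0.051 against control and 0.0539 against Taz KO.

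Bysl, a ribosome assembly gene, overlaps Ccnd3 on the opposite strand, and the strand setting of the counting is not given in the sources used here. It was at 13.2 ± 2.04 FPKM in double KO, 17.3 ± 3.85 FPKM in Taz KO and 18.6 ± 1.43 FPKM in control. Its log2 fold change in double KO against control was -0.49 (limma adjusted p = 0.0668, and 0.00208 with the block), and in double KO against Taz KO -0.36 (adjusted p = 0.19, and 0.0106 with the block). The shared stretch runs from 47599331 to 47599691 on chromosome 17, at the end of Ccnd3. If strand was not used, reads of that stretch cannot be assigned to either gene.

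Ccnd1 had the largest difference among the cyclins and the widest spread. Ccnd1 (ENSMUSG00000070348; chr7:144929931-144939925, minus strand) encodes cyclin D1, the partner of CDK4 and CDK6 that mitogen and Wnt signals raise in many cells. It was at 22, 7.33 and 24.5 FPKM in double KO, 41.9, 20.8 and 46.6 FPKM in Taz KO, and 37.4, 26.6 and 42.2 FPKM in control. The highest double KO value stayed under the lowest of control. Double KO and Taz KO overlapped, since Taz KO 2 was under double KO 1 and 3, and library 2 was the lowest of each group. The log2 fold change was -1.11 in double KO against control (SE 0.46, 95% interval -2.14 to -0.07), with a limma adjusted p of 0.107 and 0.00151 with the block. Without double KO 2 alone it was -0.57 (limma adjusted p = 0.244), and without all libraries numbered 2 it was -0.76 (adjusted p = 0.00191).

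Within a library number, Ccnd1 of double KO was at 58.7%, 27.6% and 58.1% of control for numbers 1, 2 and 3. Against Taz KO, the double KO log2 fold change was -1.09 (95% interval -2.13 to -0.06), with a limma adjusted p of 0.144, 0.00258 with the block, and 0.00167 without the libraries numbered 2 (where it was -0.92). Taz KO against control gave -0.01 (-1.05 to 1.03, adjusted p = 0.997), a difference whose sign changed in several of the alternatives. Oraov1, which overlaps Ccnd1 on the opposite strand, was at 2.94 ± 0.176 FPKM in double KO, 2.68 ± 0.203 FPKM in Taz KO and 2.34 ± 0.151 FPKM in control. Its log2 fold change in double KO against control was 0.28 (limma adjusted p = 0.0659, and 0.0265 with the block).

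**Figure D4:**
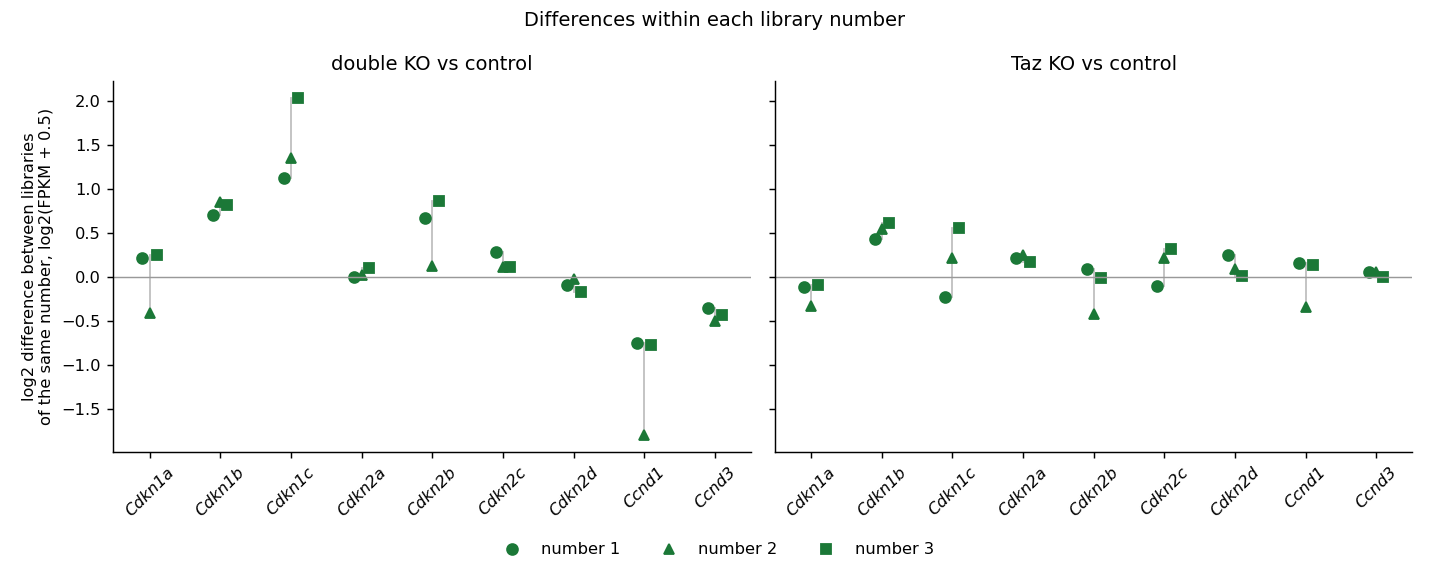
Differences between libraries of the same number on the log2(FPKM + 0.5) scale (vertical axis) for double KO against control and Taz KO against control; each gene has 1 symbol per number, and Ccnd2 is left out for its low reads. Cdkn1b and Cdkn1c are above 0 and Ccnd1 and Ccnd3 below 0 for all 3 numbers in double KO against control, with Ccnd1 of number 2 at -1.79.

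Ccnd2 (ENSMUSG00000000184; chr6:127125162-127152193, minus strand), which encodes the third D-type cyclin, was scarcely expressed. It was at 0.185, 0.00732 and 0.385 FPKM in double KO, 0.0562, 0.00763 and 0.0573 FPKM in Taz KO, and 0.125, 0.103 and 0.117 FPKM in control. These values rest on 23, 1 and 43 reads in double KO, 7, 1 and 6 reads in Taz KO, and 17, 13 and 13 reads in control. Double KO spanned the whole range, with its library 2 at the bottom, and all Taz KO libraries lay below control, by few reads. With the limit lowered to a mean of 0.1 FPKM, Taz KO against control gave -0.19 (limma adjusted p = 0.869). No direction is therefore set against the shift of chromosome 6. Nearest to Ccnd2 by lower coordinate were the tested genes 9630033F20Rik on the left and Parp11 on the right. Their log2 fold changes were -0.17 (limma adjusted p = 0.512) and 0.22 (adjusted p = 0.342) in double KO against control. Of 6 tested genes within 1000000 bases, 1 was called higher in double KO against control and in Taz KO against control, D6Wsu163e, named after its values were seen (0.60, adjusted p = 0.00156, and 0.53, adjusted p = 0.0212). Of all genes, 12.4% were called higher in double KO against control, and 1.28% were called in either direction in Taz KO against control. With the block 2 of the 6 were called higher in each of these comparisons, where 52.4% and 11.8% of all genes passed in either direction.

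Summed per family, Cip/Kip genes reached 174 ± 18.8 FPKM in double KO, 144 ± 4.97 FPKM in Taz KO and 155 ± 17.9 FPKM in control. INK4 genes summed to 37.3 ± 0.997 FPKM in double KO, 40.6 ± 1.41 FPKM in Taz KO and 35.9 ± 0.444 FPKM in control. D-type cyclins summed to 29.1 ± 9.12 FPKM in double KO, 51.9 ± 12.5 FPKM in Taz KO and 50.4 ± 7.01 FPKM in control. These sums are led by Cdkn1a, Cdkn2a and Ccnd1. Within Cip/Kip, Cdkn1c made up 5.85 ± 0.847% in double KO, 2.58 ± 0.289% in Taz KO and 2.09 ± 0.424% in control. Cdkn1b made up 10.9 ± 2.44% in double KO, 10.7 ± 1.06% in Taz KO and 6.76 ± 0.480% in control. Ccnd1 was 58.2 ± 16.4% of the D-type cyclin sum in double KO, 68.4 ± 11.5% in Taz KO and 69.6 ± 6.61% in control, so that in double KO library 2, at 39.4%, Ccnd3 was the more abundant cyclin.

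Across the 9 libraries, which share groups and library numbers, the genes fell along different courses. On the log2(FPKM + 0.5) scale Cdkn1c went with Cdkn2b (Pearson r = 0.84) and Cdkn1b (0.77) and against Ccnd3 (-0.90). Ccnd1 followed Ccnd3 less closely (0.46), and the neighbours Cdkn2a and Cdkn2b gave -0.36. Of all tested genes, those most alike to Cdkn1c were Ctnnb1 (r = 0.986), which encodes beta-catenin, and Mnt (0.984), which encodes a MAX-binding repressor. Cdkn1b was most like Evi5l (0.987) and Usp54 (0.986), which lie on chromosomes 8 and 14, both shifted like chromosome 6. For Ccnd1 these were Slc25a5 (0.997), an ADP/ATP carrier, and Hsd17b14 (0.995), and for Ccnd3 Ccdc61 (0.988) and Arhgap32 (0.984). Cdkn2b was most like Msn (0.970), which encodes moesin, and Fbxo28 (0.967), and Cdkn2d like Usp28 (0.951) and Ascc1 (0.932). Cdkn2a was most like Pgls and Iqgap3 (0.925 each), and Cdkn1a like Gm23611 (0.933) and Ccng1 (0.930), itself a p53 target. Each was chosen as the highest among 11674 genes over 9 libraries, and nothing further is read from it.

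Among the kinases, cyclins and factors that act with these genes, few passed in the limma fit of all 9 libraries. Of 42 other genes of the G1 pathway, 40 were tested; in double KO against control 3 rose and 3 fell, against 12.4% and 12.9% of all genes, and their median log2 fold change was -0.11, against -0.02 for all genes. With the block 6 rose and 14 fell, where 52.4% of all genes passed, and without the libraries numbered 2 the count was 16. The count of 6 became 2 without double KO 1, 2 or 3, 1 without control 1, 3 without control 2 and 2 without control 3. In Taz KO against control limma called 0 of the 40 (1.28% of all genes), 5 had an unadjusted p under 0.05 (12.8% of all genes), and limma-voom called 0. With the block 6 rose and 1 fell there, against 11.8% of all genes called. Those that rose, named after their values were seen, were Ccne2, E2f8, E2f4, Tfdp1, Cul1 and Ezh2, and Fbxw7 fell. E2f4 (0.35) and Tfdp1 (0.33) lie on chromosome 8, whose median log2 fold change was 0.35. Cul1 (0.35) and Ezh2 (0.39) lie on chromosome 6, with a median of 0.21. With block and centring together the count was 1. In double KO against Taz KO 1 rose and 2 fell, against 6.42% and 7.45% of all genes. With the block 5 rose and 19 fell, where 42.4% of all genes passed. That count of 3 became 0 without double KO 1 or 3 or Taz KO 1 or 3, 7 without Taz KO 2, and 1 without control 1 or 3.

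None of the 3 kinase genes passed in any comparison by the main limma fit of all 9 libraries, without the block. Cdk4 was at 118, 88.5 and 118 FPKM in double KO, 135, 105 and 147 FPKM in Taz KO, and 132, 110 and 144 FPKM in control, with library 2 the lowest of each group. Its log2 fold change in double KO against control was -0.25 (limma adjusted p = 0.292, and 0.00304 with the block), and the same against Taz KO (adjusted p = 0.342, and 0.00452 with the block). Cdk6 was lower, at 4.33 ± 1.53 FPKM in double KO, 6.21 ± 1.27 FPKM in Taz KO and 6.65 ± 0.611 FPKM in control. Its double KO values did not overlap those of control, with -0.62 (adjusted p = 0.0829, and 0.00462 with the block). Against Taz KO, which they overlapped, Cdk6 had -0.51 (adjusted p = 0.177, and 0.0138 with the block). Cdk2, the kinase of cyclins E and A, was at 82.4 ± 4.73 FPKM in double KO, 87.7 ± 4.32 FPKM in Taz KO and 75.9 ± 4.23 FPKM in control (0.12 in double KO against control, adjusted p = 0.299).

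Cyclin E1 RNA just missed the threshold in double KO against control. Ccne1 was at 16.3, 9.32 and 15.6 FPKM in double KO, 27.9, 16.1 and 30.3 FPKM in Taz KO, and 27.2, 20 and 27.4 FPKM in control. Double KO lay below every control library, with a log2 fold change of -0.86 (SE 0.28, limma adjusted p = 0.0516, and 0.000185 with the block). Against Taz KO, which it overlapped, the value was -0.82 (adjusted p = 0.0843, and 0.000575 with the block). Ccne2, the gene of cyclin E2, was at 5.29 ± 1.21 FPKM in double KO, 8.51 ± 2.47 FPKM in Taz KO and 6.87 ± 1.6 FPKM in control (-0.35 in double KO against control, adjusted p = 0.348, and 0.00414 with the block). It had -0.62 in double KO against Taz KO (adjusted p = 0.141, and 0.00067 with the block) and 0.27 in Taz KO against control (adjusted p = 0.824, and 0.0422 with the block). Ccna2, named after its values were seen, encodes cyclin A2 and fell in double KO against Taz KO by 0.44 (adjusted p = 0.0487), and had -0.31 against control (adjusted p = 0.102, and 0.00217 with the block).

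Of the retinoblastoma family, Rbl2, which encodes p130, rose. It was at 2.82, 2.83 and 3.04 FPKM in double KO, 2.26, 2.97 and 2.21 FPKM in Taz KO, and 1.86, 2.15 and 2.16 FPKM in control. Its log2 fold change was 0.41 in double KO against control (limma adjusted p = 0.0361), and it lies on chromosome 8, whose median was 0.30. Rb1, at 2.58 ± 0.498 FPKM in double KO, 2.20 ± 0.195 FPKM in Taz KO and 2.83 ± 0.425 FPKM in control, did not pass (-0.12 in double KO against control, adjusted p = 0.582). Rbl1, which encodes p107, had -0.03 (adjusted p = 0.825). Of 10 E2F and DP factor genes 1 fell in double KO against control, Tfdp2, a partner of E2F proteins (-0.27, adjusted p = 0.0275), and 3 fell with the block. Of 8 tested genes of turnover and CDC25A, 0 were called by limma and 0 by limma-voom in that comparison. An unadjusted limma p under 0.05 was found for 1 of these 8, and for 4617 of all 11674 tested genes. With the block 1 of the 8 rose (Cul1) and 3 fell (Skp2, Cks1b and Cdc25a), named after their values were seen. Of all genes, 12.4% were called higher and 12.9% lower by limma in that comparison, and 52.4% passed with the block.

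Of 13 regulators of these genes, 2 rose and 2 fell in double KO against control, beside 12.4% and 12.9% of all genes. With the block 4 rose and 3 fell, where 52.4% of all genes passed. Klf4, a pluripotency factor that activates Cdkn1a in other cells, was at 118, 153 and 100 FPKM in double KO, 178, 210 and 170 FPKM in Taz KO, and 196, 232 and 177 FPKM in control. Its highest double KO value was under the lowest of Taz KO and control. The log2 fold change of Klf4 in double KO was -0.72 against control (limma adjusted p = 0.0146) and -0.60 against Taz KO (adjusted p = 0.0442). Mycn, a gene of the MYC family, was at 21.1 ± 3.78 FPKM in double KO, 33.7 ± 6.90 FPKM in Taz KO and 32.5 ± 5.14 FPKM in control (-0.61, adjusted p = 0.0461). Against Taz KO it had -0.66 (adjusted p = 0.0538, and 0.000262 with the block). Bmi1, a Polycomb gene known to repress Cdkn2a, was at 6.68 ± 1.58 FPKM in double KO, 4.88 ± 0.0816 FPKM in Taz KO and 4.27 ± 0.867 FPKM in control (0.58, adjusted p = 0.0358), and its double KO and control values overlapped. Against Taz KO it had 0.39 (adjusted p = 0.155, and 0.0356 with the block). Zbtb17, which encodes MIZ1, a known activator of Cdkn2b and Cdkn1a, was at 11.2 ± 0.486 FPKM in double KO, 9.92 ± 0.148 FPKM in Taz KO and 9.44 ± 0.418 FPKM in control (0.24, adjusted p = 0.0297), with 0.17 against Taz KO (adjusted p = 0.121, and 0.0473 with the block). Mdm2, named after its values were seen, was called in double KO against Taz KO (0.64, adjusted p = 0.0216). It was at 36.8, 29.8 and 42.4 FPKM in double KO, 21.6, 25.7 and 21.7 FPKM in Taz KO, and 26.6, 33.9 and 29.4 FPKM in control. Neither knockout group was called against control, with 0.27 in double KO (adjusted p = 0.196) and -0.37 in Taz KO (adjusted p = 0.297).

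**Figure D5:**
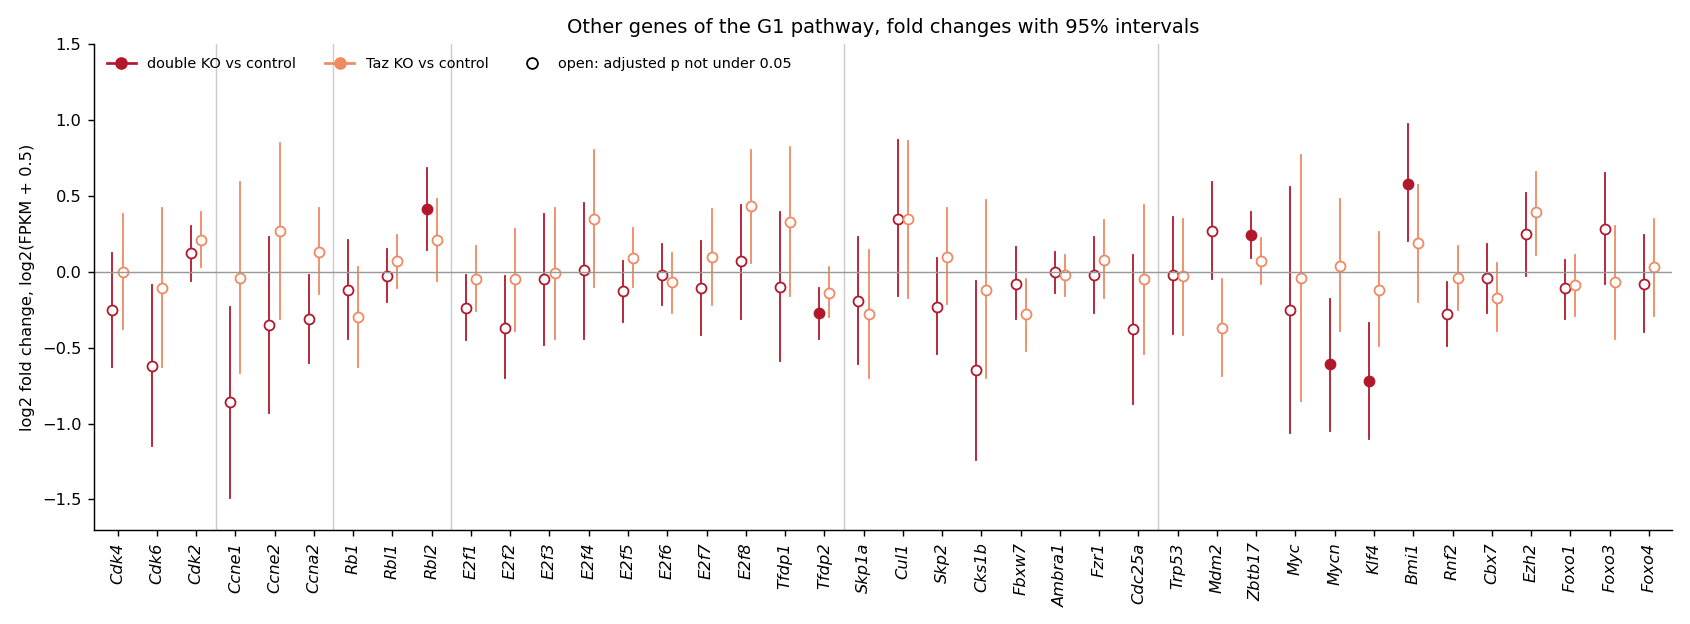
Log2 fold changes on the log2(FPKM + 0.5) scale (vertical axis) with 95% intervals for the tested genes of the G1 pathway, in double KO against control (dark) and Taz KO against control (light), grouped by vertical lines into kinases, E- and A-type cyclins, retinoblastoma family, E2F and DP factors, turnover and regulators. Filled points passed limma at an adjusted p of 0.05: Rbl2, Zbtb17 and Bmi1 above 0 and Tfdp2, Mycn and Klf4 below 0, all in double KO against control.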

How the data were processed

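Poly(A) RNA of 9 libraries was sequenced with a directional kit, per the labels. The authors deposited FPKM values per gene. As tools and build, without roles, the submitters' processing notes list HTSeq 0.6.1, TopHat2 2.1.1, DESeq2 and mm10. The annotation is not given in the sources used here.

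Within a gene, values were whole multiples of 1 read for 24621 of 24621 genes above 0 (tolerance 0.001), which gave the reads. Limma 3.58.1 (R 4.3.3) was fitted to log2(FPKM + 0.5) of the 11674 genes with a mean of at least 1 FPKM, using 3 group means over all 9 libraries, 6 residual degrees of freedom and a trend of variance with level. P-values are two-sided, with Benjamini-Hochberg adjustment over all tested genes; the pseudocount understates fold changes of low genes. The script was tested on simulated data.

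Library numbers come from the titles, which do not say what they mark. Deviations were taken from each gene's group mean, so they cancel within a group, which ties the correlations below to each other. Deviations of same-numbered libraries correlated at 0.192 to 0.711 in all 9 pairs, and those of differently numbered libraries at -0.688 to 0.394. All positive values of the latter joined numbers 1 and 3, and double KO 1 had 0.274 with control 3 and 0.192 with control 1. Number 2 was thus set apart more clearly than number 1 from number 3, which limits the block. Blocked values stand beside the members and named pathway genes whose call changed, and other genes are counted. Replicates may be technical, so p-values measure spread between these libraries. Positions come from GENCODE M21 (GRCm38), promoters from RefSeq. Distances between genes are between their lower coordinates, which for genes of the minus strand is the end and not the start of transcription. Members and lists were chosen with earlier results of these data known. Named besides the members were up to 4 pathway genes per list called in double KO against control, the kinases, E-type cyclins and retinoblastoma family, the 2 genes most alike to each member, and nearest neighbours on chromosome 6. The alternatives and their effects are in the closing section.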

Additional observations from a re-analysis of the deposited data

How the results depend on the processing

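Over 22 alternative settings, the 24 log2 fold changes of the tested genes gave 528 values, of which 474 kept their direction and side of the threshold, 21 passed it newly, 20 dropped below it and 13 changed sign. The cause of these changes was not tested. The sign changes were all of values that missed the threshold. Cdkn1a in double KO against control became -0.05, -0.01 and -0.04 without double KO 1, double KO 3 and control 3, and Cdkn2a became -0.02 with chromosome centring, also with the block. In Taz KO against control, Ccnd1 became 0.04 with centring (also with the block), lay between -0.23 and 0.34 without 1 library (0.34 without Taz KO 2, 0.04 and 0.13 without control 1 and 3), and was 0.15 without the libraries numbered 2. There Cdkn2b became 0.04 without the libraries numbered 2, and Ccnd3 -0.02 without Taz KO 2.

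The count of 4 called among the 8 genes in double KO against control lay between 3 and 6 in all settings, and between 3 and 4 without 1 library. In Taz KO against control the count of 0 became 2 with the replicate block, 1 by limma-voom, 1 without the libraries numbered 2, 1 with block and centring, and 0 to 1 without 1 library. In double KO against Taz KO the count of 3 became 7 with the block, 6 without the libraries numbered 2, 6 with block and centring, and 2 to 3 without 1 library. Among the 40 G1 pathway genes, the 6 calls of double KO against control became 3 with no filter, 20 with the block, 16 without the libraries numbered 2, 19 with block and centring, and 1 to 9 without 1 library. The 0 calls of Taz KO against control became 1 with quantile normalization, 7 with the block, 2 without the libraries numbered 2, and 1 with block and centring. The 3 calls of double KO against Taz KO became 1 with no filter, 1 with a mean of at least 0.1 FPKM, 24 with the block, 0 in a fit of the groups compared alone, 16 without the libraries numbered 2, 22 with block and centring, and 0 to 7 without 1 library. Of the 24 member values, the block changed no other call than the 7 printed beside Cdkn1b, Cdkn2a, Cdkn2d and Ccnd1.

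Over all genes, 2948, 150 and 1620 were called in double KO against control, Taz KO against control and double KO against Taz KO. With the block these were 6112, 1381 and 4947, without the libraries numbered 2 they were 4889, 423 and 4277, and without 1 library 1505 to 3568, 11 to 230 and 482 to 2648. For Taz KO against control, a fit of the groups compared alone gave 88 (35 higher and 53 lower, against 84 and 66) and centring gave 66 (16 and 50). For double KO against Taz KO, a fit of the groups alone gave 635. In double KO against control 1443 were higher and 1505 lower, against 1104 and 1730 with centring, and 1929 and 1335 with equal FPKM sums, which moved the median of all genes to 0.05; in double KO against Taz KO 750 were higher and 870 lower, against 992 and 700. Alternatives that left out the libraries numbered 2, or joined block and centring, were chosen after the data were seen.

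Low reads limit Cdkn2b, Cdkn2c and Ccnd2, the last with 1 to 43 reads per library. With 3 libraries a group and 6 residual degrees of freedom, intervals are wide for genes that vary between library numbers, Ccnd1 above all.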
